A study of Mus musculus with 29 samples.

Results

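Lipid handling by phagocytes was described in these data through 10 genes, Apoe, Apoc1, Apoc4, Lpl, Plin2, Abca1, Abcg1, Cd5l, Fabp5 and Ch25h, out of 25746 genes in the count data. The 10 genes were selected for their known function with the stroke response of these data in view, so their differences between stroked and non-stroked mice are given as a description, without p-values. Comparisons between strains and between tacrolimus schedules played no part in that choice and were tested. All 10 genes passed the filter on low counts. However, Apoc4 and Cd5l, with at most 1 count in any non-stroked library, passed it only through the stroked mice. The same held for Ch25h, with at most 9 counts in any non-stroked library.

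Poly(A) RNA of brain tissue from 29 mice in 8 groups was sequenced. Non-stroked tissue came from 4 wildtype mice (WT, C57BL/6 background, no allele or agent added), 3 Rag2-/- mice (same background, lacking lymphocytes with a rearranged antigen receptor) and 4 NSG mice (NOD background, scid mutation and no Il2rg, lacking NK cells as well). Photothrombotic cortical stroke, in which illumination of an injected dye closes vessels under the skull, was examined at 21 days post injury (dpi) in 4 WT, 3 Rag2-/- and 3 NSG mice, in 3 WT mice under tacrolimus from the day of stroke (WT-Tacr acute) and in 5 WT mice that received tacrolimus with a delay of a week (WT-Tacr delayed). Tacrolimus inhibits calcineurin in T cells and was released from an osmotic pump. Per the methods of the study, mice of both sexes were 3 months old. The labels call the non-stroked tissue control only, and the methods and results of the study differ on whether it was the side opposite to a stroke or came from naive mice, so either could be the base of each stroke difference. A non-stroked tacrolimus group was not analysed here, so both WT-Tacr groups were set against the 4 non-stroked WT mice that also served WT. NSG mice differ from WT in strain background as well as in immunity, and the effects of these cannot be told apart.

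Phagocytes that clear dying cells and myelin take in large amounts of cholesterol and fatty acids. Lipoprotein lipase frees fatty acids from triglycerides, binding proteins and droplet coats hold them inside the cell, and transporters pass surplus cholesterol to apolipoprotein particles. Sterol-sensing liver X receptors (LXR) switch on several of these genes when cholesterol builds up, Abca1, Abcg1 and Apoe among them. In brain, astrocytes are the main source of Apoe in health, and microglia add to it after injury.

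Upstream sequences are shown for 4 members. Cd5l, Apoc4 and Ch25h were nearly silent without stroke, and Plin2 was among the members that differed between the tacrolimus schedules. They are RefSeq promoter sequences on GRCm38.p6, read 5′ to 3′ on the strand of the gene and ending next to the annotated gene body. Capitals mark motif letters found there.
Cd5l: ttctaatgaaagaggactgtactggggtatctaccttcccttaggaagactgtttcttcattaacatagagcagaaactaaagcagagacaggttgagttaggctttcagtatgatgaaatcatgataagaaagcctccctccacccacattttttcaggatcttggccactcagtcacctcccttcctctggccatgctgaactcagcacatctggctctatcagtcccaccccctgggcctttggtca
Apoc4: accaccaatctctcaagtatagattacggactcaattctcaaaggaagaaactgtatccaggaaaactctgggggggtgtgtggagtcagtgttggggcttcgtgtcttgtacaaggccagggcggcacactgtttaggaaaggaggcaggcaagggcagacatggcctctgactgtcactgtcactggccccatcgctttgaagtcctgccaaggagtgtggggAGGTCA
Ch25h: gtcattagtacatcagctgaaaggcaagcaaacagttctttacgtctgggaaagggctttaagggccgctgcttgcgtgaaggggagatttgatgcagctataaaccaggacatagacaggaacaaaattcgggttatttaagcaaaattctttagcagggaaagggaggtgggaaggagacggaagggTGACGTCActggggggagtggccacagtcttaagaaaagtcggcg
Plin2: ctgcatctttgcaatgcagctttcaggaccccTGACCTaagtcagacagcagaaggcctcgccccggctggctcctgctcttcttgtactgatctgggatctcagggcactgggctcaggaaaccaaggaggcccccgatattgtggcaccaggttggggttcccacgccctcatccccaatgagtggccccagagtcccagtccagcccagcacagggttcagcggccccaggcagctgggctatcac
The windows lie at chr3:87357631-87357880 on the plus strand for Cd5l, and on the minus strand at chr7:19681480-19681710 for Apoc4, chr19:34475165-34475398 for Ch25h and chr4:86670061-86670309 for Plin2. The letters AGGTCA, a half-site of nuclear receptors, were searched on both strands in the 250 bases before each start. Positions are counted from the RefSeq start, which for Apoc4, Ch25h and Plin2 lies inside the GENCODE gene body and so beyond the last base printed. The letters were present in Apoc4, 25 bases upstream, and, on the opposite strand, in Plin2, 218 bases upstream, as in 14% of 32851 windows of that length. A pair of AGGTCA half-sites 4 bases apart, the arrangement bound by LXR, occurred in 0.0152% of windows and in none of the 6 members with a promoter entry. The cAMP response element TGACGTCA was found in Ch25h, 61 bases upstream, and in 1.55% of windows. GAGGAAGT for PU.1 (2.44% of windows) and TGAGTCA for AP-1 (4.46%) matched none of these 6 members, which were Apoe, Apoc4, Plin2, Abca1, Cd5l and Ch25h. A match is a description of letters and not evidence of binding. Promoter entries for Apoc1, Lpl, Abcg1 and Fabp5 were not used here.

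All 10 genes are protein coding in GENCODE M21 on GRCm38. Apoe (ENSMUSG00000002985, chr7:19696109-19699188), Apoc1 (ENSMUSG00000040564, chr7:19689481-19692660) and Apoc4 (ENSMUSG00000074336, chr7:19678083-19681479) lie side by side on the minus strand and form, with Apoc2 (chr7:19671579-19677941), a cluster of 27.6 kb. Lpl (ENSMUSG00000015568) is at chr8:68880491-68907448, Plin2 (ENSMUSG00000028494) at chr4:86648386-86670060 and Abca1 (ENSMUSG00000015243) at chr4:53030787-53159895. Abcg1 (ENSMUSG00000024030) is at chr17:31057675-31117988, Fabp5 (ENSMUSG00000027533) at chr3:10012548-10016607, Cd5l (ENSMUSG00000015854) at chr3:87357881-87371073 and Ch25h (ENSMUSG00000050370) at chr19:34473778-34475164. The read-through gene Gm44805 (0 to 113 counts per sample) spans parts of both Apoc4 and Apoc2 on the same strand, so the split of reads among these is uncertain.

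Total counts ran from 17789044 to 43403413 per sample. Sample titles carry 1 of 2 cohort names, Imm2 (20 samples, median 37223696 counts) or TF (9 samples, median 23155303). All non-stroked, Rag2-/- and NSG mice are in Imm2 and all WT-Tacr delayed mice in TF, while stroked WT (2 and 2 samples) and WT-Tacr acute (1 and 2 samples) are in both. Rag2 had 0 to 2 counts in every sample and could not check the labels. B230118H07Rik, which overlaps Rag2, had 0 to 4 counts in Rag2-/- mice and 274 to 1241 in the others. Il2rg had 22 to 36 counts in non-stroked NSG against 27 to 32 in non-stroked WT mice, and 31 to 37 against 58 to 137 after stroke, so its counts did not show the loss of the gene in non-stroked NSG mice. Of 3 WT-Tacr acute mice, 5m_1 (Imm2) and 1_5 (TF) stood apart from the other stroked mice and lay near non-stroked tissue for most members, whereas 2_1 (TF) did not. For 5m_1 and 1_5 the deposited data are named for another mouse number than the sample title, and the title of 5m_1 does not name the acute schedule. The group of 5m_1 here rests on the genotype label alone, whereas the title of 1_5 names the acute schedule. These doubts over 5m_1 and 1_5 bear on every group value of the acute mice. Summed levels of 6 choroid plexus genes ran from 4.79 to 1590 CPM (counts scaled to the TMM-adjusted library size) across samples. As the labels give mice but no further detail of sampling, p-values measure the spread between these mice.

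Apoe encodes the main lipid carrier of brain and was by far the most abundant of the 10 genes. In non-stroked WT mice Apoe measured 1020, 948, 1220 and 1010 CPM, and in stroked WT mice 3170, 2960, 3040 and 3660 CPM. The 2 ranges lay far apart, and the means were 1050 ± 118 CPM (SD, n = 4) and 3200 ± 313 CPM (SD, n = 4). The difference was 1.61 ± 0.24 (SE) on the log2 scale. The 8 astrocyte markers also summed higher, to 3100 to 3600 CPM against 1880 to 2220 CPM, and their part in Apoe was not tested. Stroked Rag2-/- mice had 3970, 3720 and 2890 CPM of Apoe against 1080 to 1200 CPM without stroke, and stroked NSG mice 4390, 4350 and 3220 CPM against 1420 to 1520 CPM. The stroked mice of the 3 strains overlapped for Apoe, with log2 differences of 1.64 ± 0.27 in Rag2-/- and 1.45 ± 0.25 in NSG mice.

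Apoc1, a small apolipoprotein that restrains lipoprotein uptake and lipase activity, was scarce in non-stroked WT tissue, at 0.484, 0.218, 0.292 and 0.357 CPM. Stroked WT mice had 6.21, 8.78, 7.30 and 9.16 CPM of Apoc1, a log2 difference of 4.53 ± 0.67. In Rag2-/- mice Apoc1 went from 0.0912 to 0.227 CPM without stroke to 13, 7.07 and 6.80 CPM with it. In NSG mice it was already at 1.67, 0.965, 2.41 and 1.33 CPM without stroke and stood at 14.2, 37.1 and 16.1 CPM after it. Each NSG group thus lay above the WT group of the same condition without overlap, and the stroke differences were 5.69 ± 0.86 in Rag2-/- and 3.82 ± 0.60 in NSG mice on the log2 scale.

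Apoc4, the least studied gene of the cluster, had 0 counts in all 7 non-stroked WT and Rag2-/- libraries and 2 counts in total in 4 NSG libraries. Stroked WT mice had 34, 24, 44 and 113 counts, which is 0.858, 0.667, 1.91 and 3.45 CPM and at least 79.6-fold higher, with 3 counts over the non-stroked group as the floor. The higher pair of these mice was from TF. Stroked Rag2-/- mice had 67, 32 and 27 counts of Apoc4 (at least 40.4-fold higher), and stroked NSG mice 34, 91 and 38 counts, a ratio of 102 (95% interval for counting error only, 27.8 to 850). Every stroked mouse of these strains lay above every non-stroked one.

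Lpl encodes lipoprotein lipase, which microglia and some neurons make in brain. It measured 22.7, 15.1, 19.9 and 20.1 CPM in non-stroked WT mice and 37.9, 43, 73.2 and 76.7 CPM in stroked WT mice, where the lower pair was from Imm2 and the higher from TF. The groups did not overlap and differed by 1.57 ± 0.32 on the log2 scale, and by 0.99 with cohort as a covariate. Stroked Rag2-/- mice had 52.5, 38.6 and 41.9 CPM of Lpl (21.1 to 26.0 CPM without stroke, log2 difference 0.96 ± 0.37), and stroked NSG mice 76.9, 126 and 72.2 CPM (44.1 to 65.5 CPM without stroke, 0.76 ± 0.34). Non-stroked NSG mice thus already had as much Lpl as stroked Rag2-/- mice, with overlapping ranges.

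Plin2 coats lipid droplets and marks cells that store neutral lipid. Non-stroked WT mice had 2.73, 3.97, 3.08 and 3.57 CPM of Plin2, and stroked WT mice 7.85 and 11.0 CPM in Imm2 and 20.1 and 26.4 CPM in TF. The stroke difference in WT mice was 2.29 ± 0.44 on the log2 scale, and 1.5 with Imm2 mice alone. The 9 border or infiltrating macrophage markers differed with cohort in the same order, with sums of 13.9 and 20.3 CPM in Imm2 and 30 and 35.6 CPM in TF, and their part in Plin2 and Lpl was not tested. Plin2 stood at 11.4, 9.84 and 9.56 CPM in stroked Rag2-/- mice and at 10.7, 23.5 and 10.7 CPM in stroked NSG mice, all above the non-stroked mice of these strains (2.83 to 4.02 CPM). Fabp5, which ferries fatty acids through the cytosol, differed less, with 55.0 ± 2.0 CPM (SD, n = 4) without and 70.5 ± 5.0 CPM (SD, n = 4) with stroke in WT mice, a log2 difference of 0.36 ± 0.12. The corresponding Fabp5 values were 0.42 ± 0.13 in Rag2-/- and 0.53 ± 0.12 in NSG mice.

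Abca1 and Abcg1 export cholesterol to lipid-poor and to mature lipoprotein particles, respectively. Abca1 measured 42.4 to 48.1 CPM in non-stroked WT mice and 123, 120, 192 and 209 CPM after stroke, with the lower pair again from Imm2. Its log2 difference was 1.83 ± 0.30 in WT mice, against 1.65 ± 0.34 in Rag2-/- and 1.33 ± 0.31 in NSG mice. NSG mouse 1f_1 had 65.8 CPM of Abca1, just above the highest non-stroked NSG mouse at 63.1 CPM, while the other 2 had 226 and 131 CPM. Abcg1, by contrast, moved from 82.2 ± 1.8 CPM (SD, n = 4) to 95.7 ± 8.1 CPM (SD, n = 4) in WT mice, a log2 difference of 0.22 ± 0.07, and in NSG mice its ranges with and without stroke overlapped. Ch25h makes 25-hydroxycholesterol, an oxysterol signal of activated macrophages. It had 6 to 8 counts per library in non-stroked WT mice (0.192 ± 0.029 CPM, SD, n = 4) and 56, 30, 38 and 56 counts in stroked WT mice (1.40 ± 0.40 CPM, SD, n = 4). The log2 difference of Ch25h was 2.84 ± 0.33 in WT mice, against 3.43 ± 0.40 in Rag2-/- and 2.52 ± 0.36 in NSG mice, without overlap in any strain.

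Cd5l encodes a secreted protein of tissue macrophages, also called AIM, that binds pentameric IgM in blood and limits fatty acid synthesis in cells that take it up. Non-stroked WT mice had 1 count of Cd5l in 4 libraries, and stroked WT mice had 124, 319, 394 and 917 counts (3.13, 8.86, 17.1 and 28.0 CPM). The higher pair was from TF, while all non-stroked, Rag2-/- and NSG mice are in Imm2. The ratio of stroked to non-stroked WT mice, cohorts pooled, was 1950, with a counting interval of 349 to 77000. Rag2-/- mice had 0 counts in 3 non-stroked libraries and 199, 499 and 306 counts after stroke, at least 322-fold higher. In NSG mice 1 count in 4 non-stroked libraries was followed by 38, 102 and 23 counts (0.962, 2.52 and 0.704 CPM), a ratio of 204 (36.1 to 8120). Every stroked NSG mouse lay below every stroked WT and Rag2-/- mouse for Cd5l.

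**Figure D1:**
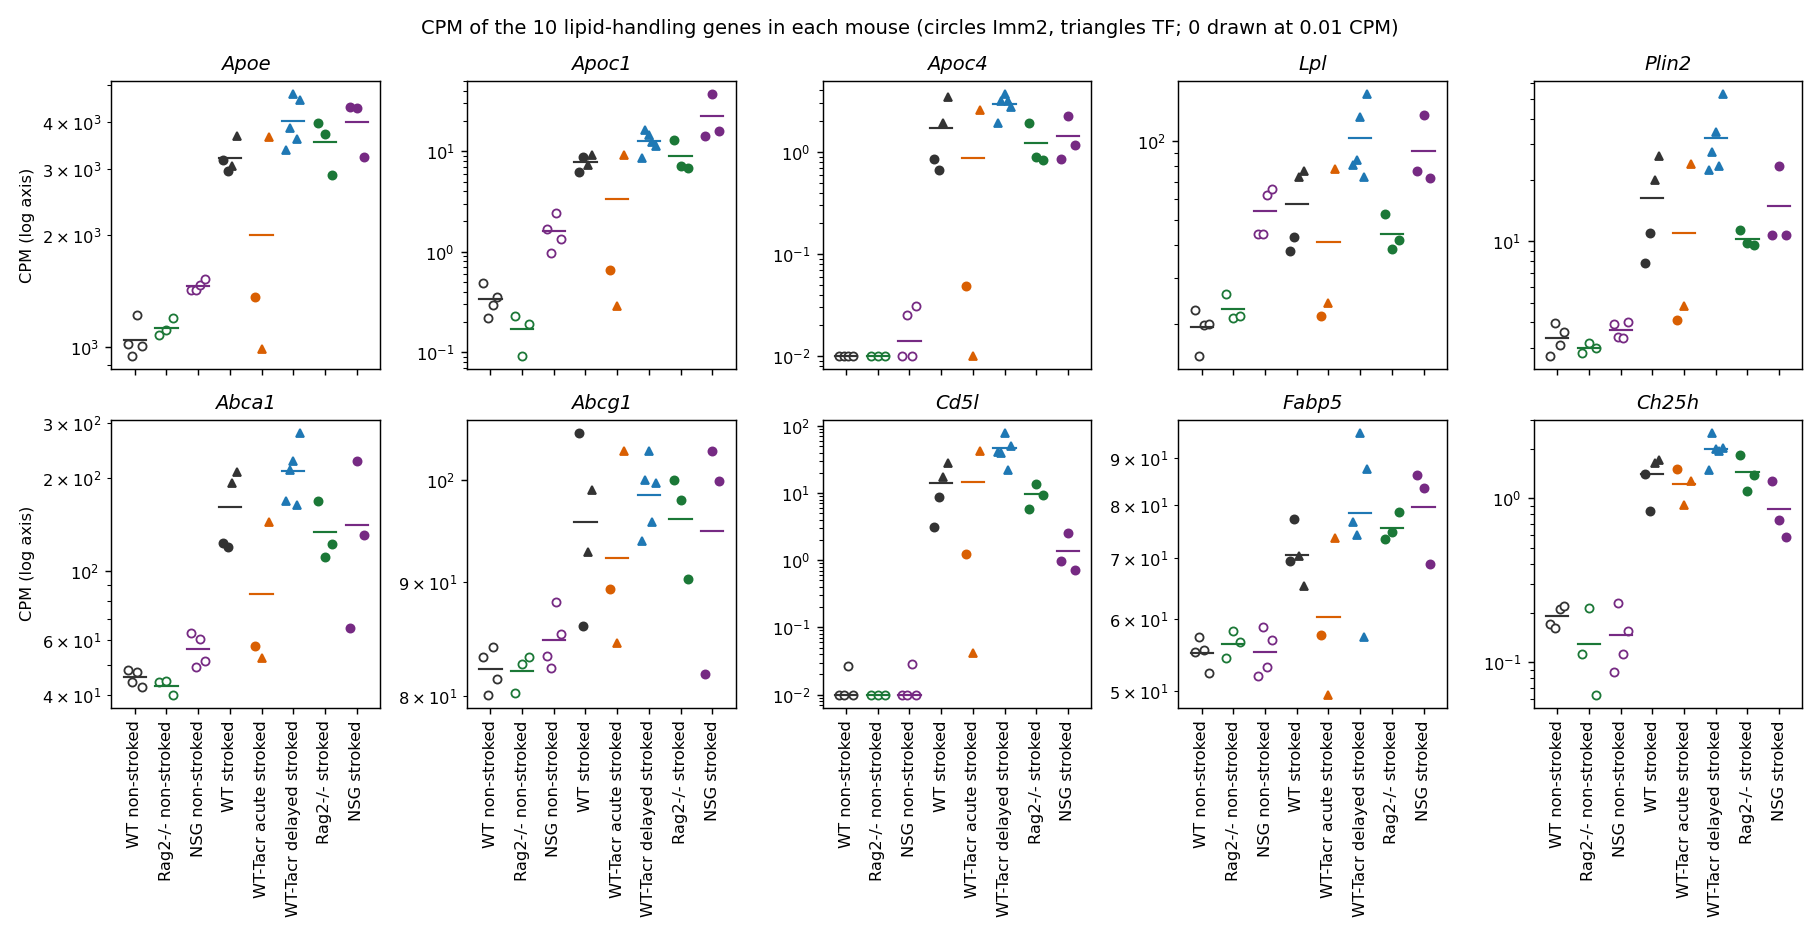
Level of each of the 10 genes in CPM (log axis) by group. Each point is 1 mouse (open, non-stroked; filled, stroked; circles, cohort Imm2; triangles, cohort TF), horizontal lines are group means, and 0 is drawn at 0.01 CPM. Apoc4 and Cd5l sit at or near the floor in all 11 non-stroked mice, Abcg1 and Fabp5 span narrow ranges, and 2 of the 3 WT-Tacr acute mice lie near the non-stroked groups for most genes.

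Counted with the threshold used across all genes (edgeR adjusted p below 0.05 and absolute log2 fold change above 1), 8 of the 10 genes were higher after stroke in WT mice, where 6.76% of the 17031 genes tested were, and 7 in Rag2-/- mice, where 4.22% were. In NSG mice 7 were higher (5.01% of genes tested), in WT-Tacr acute mice 6 (2.28%) and in WT-Tacr delayed mice 8 (11.5%). None was lower. The delayed mice are all in TF and their non-stroked mice in Imm2, so that cohort and stroke cannot be told apart in that contrast. Because the members were selected on this contrast, nothing is read from these shares. Abcg1 and Fabp5 were under the fold threshold throughout, and Lpl was in Rag2-/- and NSG mice.

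**Figure D2:**
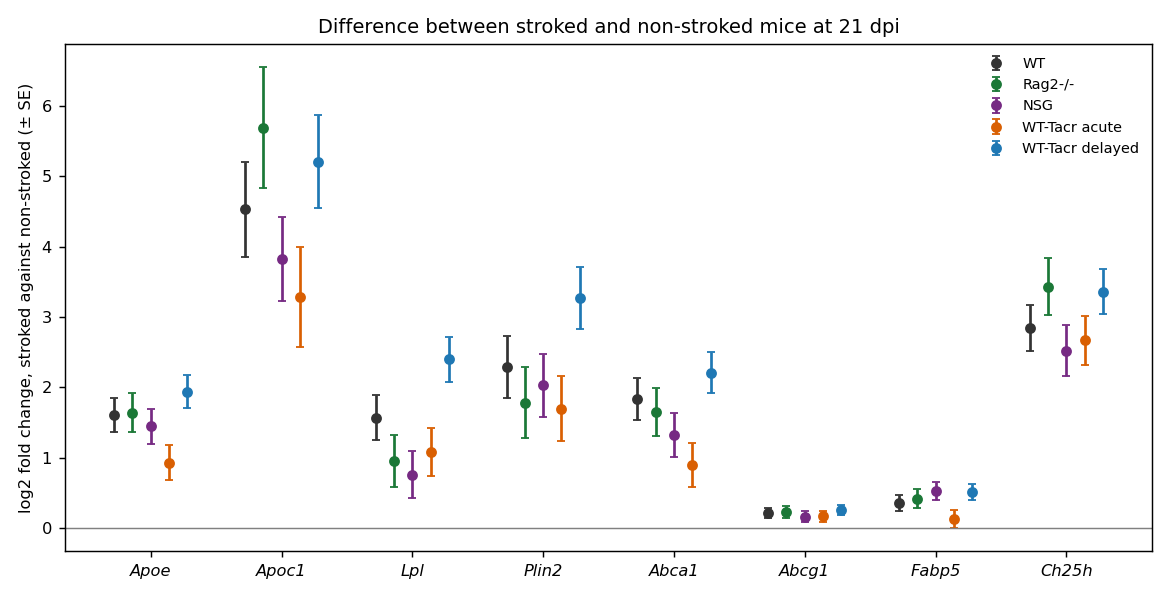
Log2 fold change ± SE between stroked and non-stroked mice for 8 of the genes in the 5 stroked groups, each against non-stroked mice of its strain. Apoc4 and Cd5l are left out because their non-stroked libraries held at most 1 count. Apoc1 has the largest values (3.29 to 5.69), Abcg1 and Fabp5 the smallest (0.13 to 0.53), and WT-Tacr delayed lies above WT-Tacr acute for every gene drawn.

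The order of the genes by level changed with stroke. On the scale of CPM per kb of exon sequence, non-stroked WT tissue had Apoe first at 491, then Fabp5 (15.4), Abcg1 (11.3), Abca1 (4.39), Lpl (1.86), Plin2 (0.95), Apoc1 (0.454) and Ch25h (0.138). Neighbours in this order did not overlap between mice. In stroked WT tissue Apoe was at 1500 CPM per kb, Fabp5 at 19.8, Abca1 at 15.5, Abcg1 at 13.1, Apoc1 at 10.6, Cd5l at 7.01, Lpl at 5.51 and Plin2 at 4.65, and each neighbour from Fabp5 to Plin2 overlapped the next. Abca1 thus overlapped Abcg1 and Cd5l overlapped Lpl, while on this scale Apoc1 lay above Lpl in every mouse. The order depended on the length used. Per kb of the longest transcript, Lpl (4.73) was above Abca1 (4.43) in non-stroked WT mice. In stroked WT mice Abcg1 (16.4) was then above Abca1 (15.7), and Lpl (14) and Plin2 (8.66) were above Cd5l (7.02). Means of Apoc1 (14.8) and Lpl (14) were close by that length, and Apoc1 was not above Lpl in every stroked WT mouse. In stroked NSG mice Apoc1 was second at 30.2 CPM per kb, overlapping Fabp5 at 22.3, whereas Cd5l was at 0.685 and overlapped Ch25h at 0.623.

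To ask whether levels of these genes differ between strains without stroke, non-stroked mice were compared. Between NSG and WT mice, strain background and immunity both differ and cannot be told apart. Lpl and Apoc1 were higher in NSG than in WT mice, 2 of the 10 members, where 3.36% of the genes tested differed in either direction. Lpl had 44.3, 44.1, 62.3 and 65.5 CPM in NSG and 15.1 to 22.7 CPM in WT mice, 2.78-fold higher (log2 fold change 1.47, SE 0.32, edgeR adjusted p = 0.00305). Apoc1 was 4.68-fold higher, with an edgeR adjusted p = 0.0423 (log2 fold change 2.23, SE 0.70). In 4 of 4 NSG mice both genes lay above all WT mice. Leaving out any 1 of these 8 mice kept Lpl past the threshold (edgeR adjusted p 0.00414 to 0.0151), whereas Apoc1 remained past it only without NSG replicate 2 (0.0405 to 0.135). Apoe had no overlap either, at 1460 ± 49.9 CPM (SD, n = 4) in NSG and 1050 ± 118 CPM (SD, n = 4) in WT mice. It was not past the threshold (log2 fold change 0.47, edgeR adjusted p = 0.224). Nor did Abca1 overlap, at 49.2 to 63.1 against 42.4 to 48.1 CPM, with a log2 fold change of 0.30 (edgeR adjusted p = 0.602). The share of all genes without overlap is not reported here.

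The 8 phagocyte markers (Aif1, Csf1r, Cd68, Ptprc, Itgam, C1qa, Tyrobp and Fcer1g) summed to 185 to 211 CPM in non-stroked NSG and 161 to 187 CPM in non-stroked WT mice, and none was called between them. The 7 homeostatic microglia markers (187 to 215 against 133 to 164 CPM, 0 called) and the 9 border or infiltrating macrophage markers (9.09 to 12 against 5.07 to 7.92 CPM, 1 called higher) also lay higher in NSG, without overlap, and their part in Lpl and Apoc1 was not tested. Relative to the phagocyte marker sum, Lpl was at 0.229 to 0.314 in NSG and 0.0936 to 0.128 in WT mice. The part of phagocyte number in the difference of Lpl was not tested further. In such bulk tissue, fewer cells of a type and less RNA per cell cannot be told apart. Among the 10 lipoprotein genes tested outside the members, Apoa2 had 0 counts in all NSG mice and 0.342 to 0.49 CPM in non-stroked WT mice. Between non-stroked Rag2-/- and WT mice no member was called (0 of 10 by edgeR and by DESeq2, 0 at an unadjusted p under 0.05), with 0.00587% of genes called. Of all 17031 genes tested, 349 had an unadjusted p under 0.05.

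Stroked NSG mice were then set directly against stroked WT mice, a comparison added after the data were seen. Cd5l was lower in NSG, the only member called where 3.26% of the genes tested were. It passed the filter only through stroked mice, but each mouse of both groups compared here had at least 23 counts of Cd5l. The means were 1.40 ± 0.98 CPM (SD, n = 3) and 14.3 ± 10.8 CPM (SD, n = 4), a log2 fold change of -3.33 (SE 1.02, edgeR adjusted p = 0.0333), and 3 of 3 NSG mice were below all WT mice. The call was lost without NSG mouse 1f_1 or 1m_3 and without WT mouse 5_2 or 5_3 (edgeR adjusted p 0.0669 to 0.128). Relative to the summed phagocyte markers, none of which was called between these groups, Cd5l was at 0.0015 to 0.00328 in NSG and 0.00633 to 0.046 in WT mice. Within Imm2 the log2 fold change of Cd5l was -2.09 (edgeR adjusted p = 0.0265), and with cohort as a covariate it was -1.74 (edgeR adjusted p = 0.241). Apoc1 was at 22.5 ± 12.7 CPM (SD, n = 3) against 7.86 ± 1.36 CPM (SD, n = 4), without overlap but not past the threshold (log2 fold change 1.51, edgeR adjusted p = 0.0652). Lpl was at a log2 fold change of 0.67 (edgeR adjusted p = 0.187) with all mice, and its ranges overlapped. Within Imm2, where cohort does not differ but only 2 stroked WT mice remain, Apoc1 (1.59, edgeR adjusted p = 0.0329) and Lpl (1.18, edgeR adjusted p = 0.00738) were higher in stroked NSG mice.

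Apoc2, the activator of lipoprotein lipase and the neighbour of Apoc4, had at most 2 counts in any non-stroked and 5 in any stroked NSG library. Apoc2 passed the filter only through the other stroked mice, where it was higher, so it is described without a test. It had 22, 28, 33 and 87 counts in stroked WT and 51, 44 and 36 in stroked Rag2-/- mice, but 1, 5 and 3 counts in stroked NSG mice. Stroked NSG mice thus lay below stroked WT and Rag2-/- mice without overlap. Apoc4, whose reads overlap the same read-through gene, showed no such gap, at 1.42 ± 0.73 CPM (SD, n = 3) in NSG and 1.72 ± 1.28 CPM (SD, n = 4) in WT mice (log2 fold change -0.26, edgeR adjusted p = 0.863). Without a test of the difference between the genes, their contrast is given as values only. Whether sequence differences of the NOD background affect the alignment of Apoc2 or Cd5l reads was not tested.

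**Figure D3:**
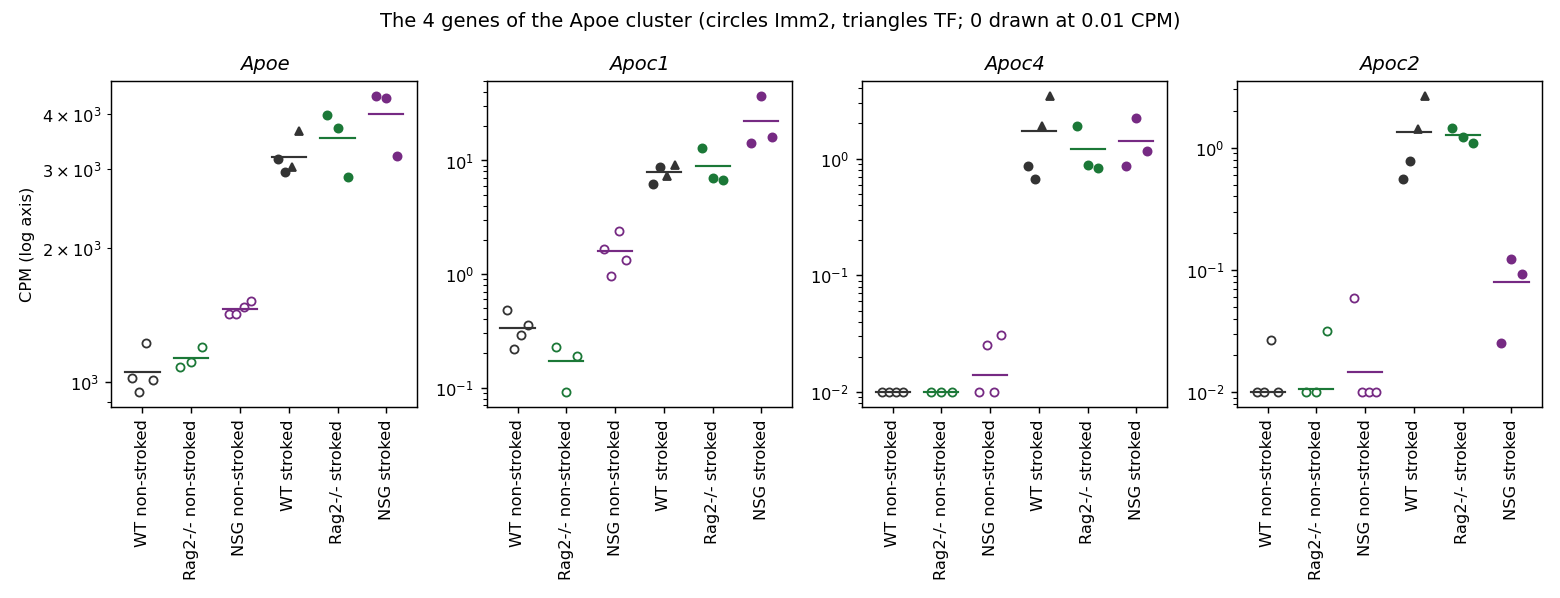
Levels in CPM (log axis) of the 4 neighbouring genes Apoe, Apoc1, Apoc4 and Apoc2 in WT, Rag2-/- and NSG mice. Each point is 1 mouse (open, non-stroked; filled, stroked; circles, Imm2; triangles, TF), lines are means, and values under 0.01 CPM are drawn there. NSG mice lie above WT for Apoc1 in both conditions, while stroked NSG mice lie below stroked WT and Rag2-/- mice for Apoc2 (1 to 5 counts).

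When the stroke response itself, stroked minus non-stroked, was compared with that of WT mice, no member differed in Rag2-/- mice (0 of 10, with 0.0% of genes called) or NSG mice (0 of 10, with 0.0117% called). DESeq2 likewise called 0 members in either comparison, and 0 had an unadjusted p under 0.05. Of all 17031 genes tested with edgeR, 713 in Rag2-/- and 2167 in NSG mice had such a p. For Lpl the response was 0.80 log2 units smaller in NSG (log2 difference -0.80, SE 0.47, edgeR adjusted p = 0.461), and for Apoc1 it was -0.71 (SE 0.89, edgeR adjusted p = 0.757). For Cd5l, the non-stroked libraries with 0 or 1 count gave a difference of responses with a wide error (SE 9.61 in NSG and 4.55 in Rag2-/- mice on the log2 scale).

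To ask how tacrolimus from the day of stroke goes with these genes, WT-Tacr acute mice were compared with stroked WT mice. No member was called (0 of 10 by edgeR and by DESeq2, with 0.0% of genes called), and 3 had an unadjusted p under 0.05, Apoe, Apoc1 and Abca1. Of all 17031 genes tested, 2168 had such a p, so nothing is read from this count. The 3 treated mice disagreed. Mice 5m_1, 1_5 and 2_1 had 1360, 991 and 3640 CPM of Apoe, 0.657, 0.291 and 9.19 CPM of Apoc1, and 4.11, 4.83 and 23.9 CPM of Plin2. Cd5l was at 1.22, 0.0416 and 42.6 CPM in these mice, the last of which exceeded all 4 stroked WT mice (3.13 to 28.0 CPM). Lpl was at 21.5, 24.1 and 78.3 CPM and Abca1 at 57.2, 52.4 and 144 CPM. Mouse 2_1 was thus inside or above the stroked WT range for these 6 genes, and the other 2 were below it. Ch25h was the exception, at 1.51, 0.916 and 1.27 CPM within the stroked WT range (0.833 to 1.71 CPM) in all 3 mice and above every non-stroked mouse (at most 0.229 CPM).

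**Figure D4:**
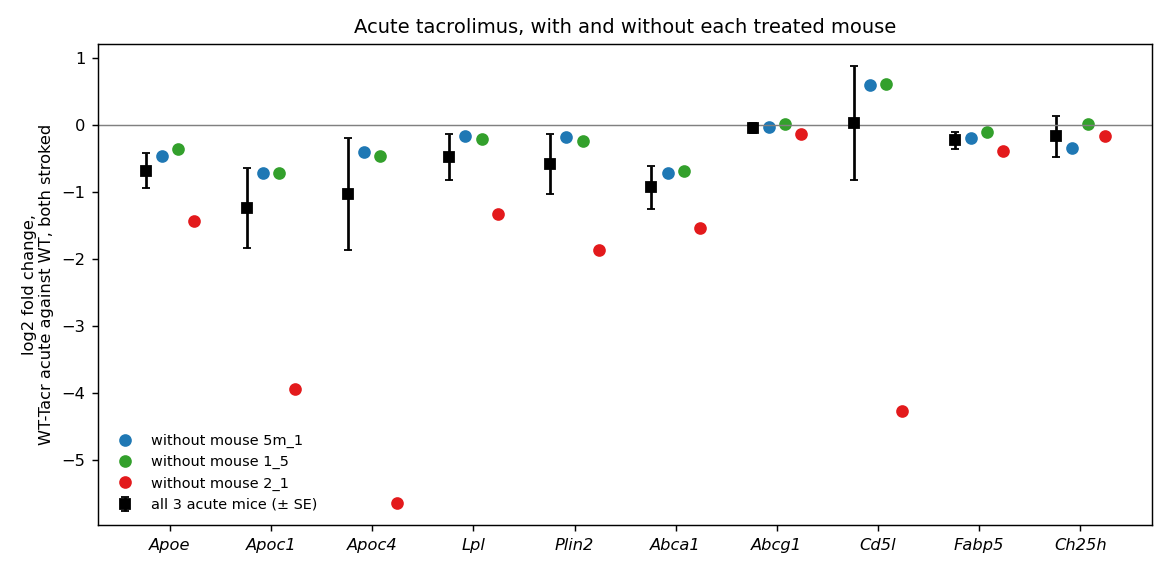
Log2 fold change of each gene between WT-Tacr acute and stroked WT mice with all 3 treated mice (black squares, ± SE) and after leaving out each in turn (coloured points). Without mouse 2_1 the values fall to -1.44 for Apoe and -5.64 for Apoc4, whereas without 5m_1 or 1_5 most lie closer to 0, and Ch25h stays between -0.34 and 0.01.

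The result of acute tacrolimus therefore rested on 1 mouse. Without 2_1, 7 members were called lower than in stroked WT mice, Apoe (log2 fold change -1.44, edgeR adjusted p = 7.89e-05), Apoc1 (-3.94), Apoc4 (-5.64), Lpl (-1.33), Plin2 (-1.86), Abca1 (-1.54) and Cd5l (-4.27), while with 2_1 none was. Apoc4 and Cd5l passed the filter only through other stroked mice, and the share of all genes called without 2_1 is not reported here. These 7 calls are therefore a description. The 6 members called between WT-Tacr acute and non-stroked WT mice likewise became 1, Ch25h, without 2_1. That gene too passed the filter only through stroked mice. Markers of several cell types moved with the same mice. The phagocyte markers summed to 245 CPM in 5m_1, 210 CPM in 1_5 and 560 CPM in 2_1, against 495 to 609 CPM in stroked and 161 to 187 CPM in non-stroked WT mice. The 5 fibroblast markers, a sign of scar tissue, summed to 108, 82.5 and 356 CPM against 267 to 562 CPM in stroked and 81.2 to 91.9 CPM in non-stroked WT mice. The 6 neuron markers summed to 7730, 7170 and 5450 CPM, against 4680 to 6520 CPM in stroked and 7030 to 7800 CPM in non-stroked WT mice. The part of lesion size or of the tissue piece taken in these values was not tested.

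WT-Tacr delayed mice had the highest mean levels of 8 members, all but Apoc1 and Fabp5, among the 5 stroked groups. Plin2 measured 22.5, 27.6, 34.6, 23.5 and 52.9 CPM, Lpl 81.2, 84.3, 123, 72.9 and 151 CPM, and Cd5l 40.6, 39.3, 79.2, 22.3 and 49.7 CPM. Apoe ran from 3360 to 4740 CPM and Apoc1 from 8.49 to 16.3 CPM, both overlapping stroked WT mice. Of the 10 members, 0 were called against stroked WT mice (0 by edgeR and by DESeq2, with 0.0% of genes called), and 3 had an unadjusted p under 0.05, Lpl (log2 fold change 0.83, edgeR adjusted p = 0.163), Plin2 (0.98, edgeR adjusted p = 0.183) and Cd5l (1.70, edgeR adjusted p = 0.225). Of all 17031 genes tested, 3455 had an unadjusted p under 0.05, so nothing is read from this count. All delayed mice are in TF, and within TF the values were 0.46 for Lpl, 0.47 for Plin2 and 1.03 for Cd5l. Mouse 5_5 had the highest Plin2, Lpl and Abca1 (280 CPM) of all mice and also the highest phagocyte marker sum, at 850 CPM.

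Between the delayed and the acute schedule 5 of the 10 members were higher with the delay, where 5.75% of genes tested were called. These were Apoe (log2 fold change 1.01, SE 0.25, edgeR adjusted p = 0.0119), Apoc1 (1.92, SE 0.59, 0.0247), Lpl (1.32, SE 0.34, 0.0131), Plin2 (1.57, SE 0.44, 0.0178) and Abca1 (1.31, SE 0.32, 0.011). Abca1 alone of these had no overlap, with 163 to 280 CPM against 52.4 to 144 CPM. None of the 5 was called without 5m_1, without 1_5, within TF (2 acute mice) or in a fit of these 2 groups alone, and 3 were called without delayed mouse 5_5. Without 2_1, 7 were called, and the shares of all genes called in these fits are not reported here. Phagocyte markers moved alongside, with 6 of 8 called higher, and so did 5 of 9 border or infiltrating macrophage markers, 4 of 5 fibroblast markers and 3 of 6 choroid plexus genes, and their part in the difference was not tested.

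Other genes of lipid handling were counted from lists by role, in stroked against non-stroked WT mice, with 6.76% of all genes called higher. The lists were chosen with this contrast known, so the counts are a description. Of 13 uptake receptors tested, 6 rose and 0 fell (median log2 fold change 0.12, against 0.00 over all genes). Among these, the scavenger receptor Msr1 was at 0.053 to 0.0825 CPM without and 1.69 to 4.92 CPM with stroke, and Olr1 at 0 to 0.0272 and 0 to 0.458 CPM, so that both passed the filter only through stroked mice. The fatty acid transporter Cd36 (log2 fold change 4.04 ± 0.83) and Cxcl16 (3.23 ± 0.52), which also takes up oxidized lipoprotein, were measured in both conditions. Of 10 other lipoprotein genes, 2 rose (median 0.41), Apoc2, with 170 counts in 4 stroked against 1 in 4 non-stroked libraries, and Apod (1.76 ± 0.24). Of 18 droplet and ester genes, 3 rose (median 0.30), Plin4 (3.43 ± 0.40), Soat2 (1.69 ± 0.64) and Plin5 (1.67 ± 0.48). Soat2, at 0 to 0.19 CPM in non-stroked WT mice, passed the filter only through stroked mice. Of 17 genes of fatty acid binding and oxidation, 2 rose (median 0.07), Fabp7 (1.43 ± 0.39) and Fabp4, a macrophage and adipocyte relative of Fabp5 at 0 to 0.11 CPM without and 1.04 to 3.6 CPM with stroke, which passed the filter only through stroked mice.

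Of 13 genes of LXR signalling, efflux and oxysterols, 1 rose (median 0.25), a share near the 6.76% of all genes. This was Gpr183 (1.18 ± 0.27), a receptor for oxysterols made from 25-hydroxycholesterol. The LXR genes Nr1h3 (0.65) and Nr1h2 (-0.08), named here after their values were seen, were under the fold threshold. Of 4 lipase partners, Angptl4 (1.94 ± 0.40), an inhibitor of lipoprotein lipase, rose (median 0.34). Of the IgM partners of Cd5l, Jchain rose (1.16 ± 0.41) and Ighm did not pass (-0.26, edgeR adjusted p = 0.48). Mean Ighm without stroke was 49.3 CPM in Rag2-/- and 37.8 CPM in NSG mice, which lack mature B cells, against 44.9 CPM in WT mice. The source of these reads was not tested. In Rag2-/- mice 5 of 13 uptake receptors rose, where 4.22% of all genes were called higher, and Jchain was at 0.20 (edgeR adjusted p = 0.88). In NSG mice 5 of 13 uptake receptors rose, where 5.01% of all genes were called higher, and Jchain was at -0.16 (edgeR adjusted p = 0.822). Between stroked NSG and WT mice, Plin4 was lower in NSG (log2 fold change -2.37, SE 0.42, edgeR adjusted p = 0.000344). Apoa2 had 0 counts in NSG and 0.261 to 0.528 CPM in WT mice.

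Marker lists set the members beside the cells that express them. In WT mice 8 of 8 phagocyte markers rose after stroke (median log2 fold change 2.03), as did 7 of 9 markers of border or infiltrating macrophages (median 1.94), of which Arg1 stayed under 0.1 CPM in the median sample. Only 1 of 7 homeostatic microglia markers rose (median 0.63). Of 8 astrocyte markers 1 rose (median 0.43), of 5 fibroblast markers 4 (median 3.56), of 6 neuron markers 0 (median -0.35), of 6 oligodendrocyte markers 0 (0.28), of 6 endothelial markers 0 (-0.74) and of 6 choroid plexus markers 0 (-0.72). Relative to the phagocyte marker sum, Apoe was at 6.0 (5.72 to 6.52) in non-stroked and 5.90 (5.32 to 6.41) in stroked WT mice, and Abca1 at 0.26 (0.245 to 0.273) and 0.292 (0.238 to 0.343). For both genes these ranges overlapped between conditions. Apoc1 relative to the sum was at 0.00193 (0.00135 to 0.00272) without and 0.0144 (0.0125 to 0.0174) with stroke, and Fabp5 at 0.316 (0.296 to 0.354) and 0.131 (0.107 to 0.153), without overlap for either gene.

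Over the 18 stroked mice, each member was compared with the mean of all 10 standardized log2 levels. Likeness was highest for Apoc4 (Pearson r = 0.967), Abca1 (0.921), Plin2 (0.918) and Apoe (0.91) and lowest for Ch25h (0.468). As this mean contains each member and mice 5m_1 and 1_5 lie far from the rest, r was also taken without these 2 mice. It was then 0.897 for Apoc4, 0.926 for Plin2, 0.602 for Ch25h, 0.374 for Apoc1 and 0.324 for Fabp5, so Ch25h was no longer lowest. The 5 genes outside the 10 with the closest pattern were Unc93b1 (r = 0.989, rho = 0.961), Hvcn1 (0.987), Litaf (0.986), Ly9 (0.986) and Trem2 (0.986), and without the 2 mice r was 0.955 to 0.973. The r values are descriptions of these mice from 2 cohorts, and no p is given. Trem2 encodes a lipid-sensing receptor of microglia and itself rose in WT mice after stroke (log2 fold change 2.36 ± 0.30).

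**Figure D5:**
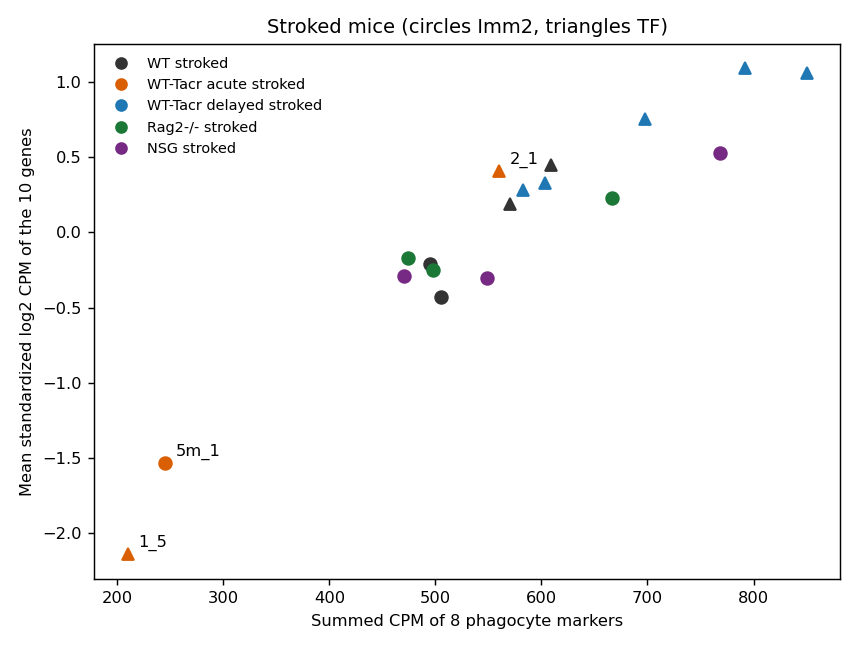
Mean standardized log2 CPM of the 10 genes (y axis, no unit) against the summed CPM of 8 phagocyte markers (x axis) in the 18 stroked mice, coloured by group (circles, Imm2; triangles, TF). Mice 5m_1 and 1_5 under acute tacrolimus stand apart at the lower left (245 and 210 CPM, -1.53 and -2.14, respectively). Delayed mice 3_5 and 5_5 reach the highest profile values (1.09 and 1.06).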

How the data were processed

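Whole-number counts of reads per gene, deposited by the authors for each of 29 samples, were used as given. The aligner, genome build and annotation behind the counts are not given in the sources used here. Gene names and positions were taken from GENCODE M21 on GRCm38, in which 25712 of 25746 identifiers were found. Genes were filtered with filterByExpr, which kept 17031, scaled by TMM and tested with the quasi-likelihood test of edgeR 4.0.16 in R 4.3.3, in 1 model over all 8 groups with Benjamini-Hochberg adjustment. Calls needed both an adjusted p under 0.05 and more than 1 log2 unit of change. DESeq2 1.42.0, other filters and scalings, cohort as a covariate, single cohorts and left-out mice were alternatives. The code was tested on simulated data. The members and lists were chosen with earlier results of these data known, and their stroke differences support nothing. At most 4 genes per list were named, by size of change among those called, plus Apoc2, Ighm, Jchain and the 5 genes most like the members. The direct comparison of stroked NSG and WT mice was added after the data were seen. Counting intervals cover counting error only, at 95%, and a group without counts was set to a floor of 3 counts. Total counts per sample, from 17789044 to 43403413, set the precision for genes with few counts. The summary of the lysosomal gene list is not reported here.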

Additional observations from a re-analysis of the deposited data

How the results depend on the processing

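The number of members called depended most on the acute tacrolimus mice and on cohort. Against non-stroked WT mice, the 6 members called in WT-Tacr acute mice became 1 with cohort as a covariate, 1 when only the compared groups were fitted and 2 within Imm2, and 1 to 8 with 1 mouse left out. Between acute and stroked WT mice, 0 became 0 to 7 with 1 mouse left out. Between the schedules, 5 became 0 when only the compared groups were fitted, 0 within TF, and 0 to 7 with 1 mouse left out. Between stroked NSG and WT mice, 1 became 2 with cohort as a covariate, 3 within Imm2, and 0 to 1 with 1 mouse left out. Between non-stroked NSG and WT mice, 2 became 1 to 2 with 1 mouse left out. The cause of these changes was not tested, and the shares of all genes called in these alternative fits are not reported here.

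Some log2 differences that were not called changed sign. With cohort as a covariate and within Imm2, respectively, the difference of responses between Rag2-/- and WT became 0.96 and 0.68 for Apoc4, 0.37 and 0.29 for Plin2 and 0.24 and 0.23 for Abca1. That between NSG and WT became 0.62 and 0.52 for Plin2, and 0.03 for Apoe with the covariate. Stroked NSG against WT mice became 1.2 and 0.90 for Apoc4, 0.76 and 0.67 for Plin2 and 0.22 and 0.22 for Abca1. Acute tacrolimus against stroked WT became -0.74 and -2.30 for Cd5l (-0.09 within TF) and 0.43 for Ch25h within Imm2, and delayed tacrolimus -0.15 for Apoc4 with the covariate.

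With 1 mouse left out, values ranged from -0.05 to 0.23 for Fabp5 in acute against non-stroked mice, and from -1.48 to 1.51 for Cd5l in non-stroked NSG against WT mice. For acute against stroked WT mice the ranges were -0.13 to 0.01 for Abcg1, -4.27 to 0.61 for Cd5l and -0.35 to 0.01 for Ch25h, and for delayed mice -0.01 to 0.09 for Abcg1. For the response of Rag2-/- mice they were -0.05 to 0.17 for Apoe, -0.98 to 0.12 for Apoc4, -0.04 to 0.07 for Abcg1 and -0.56 to 1.49 for Cd5l, and for that of NSG mice -0.72 to 0.08 for Plin2 and -0.11 to 0.06 for Abcg1. For stroked NSG against WT mice they were -0.75 to 0.35 for Apoc4, -0.60 to 0.22 for Plin2, -0.70 to 0.16 for Abca1 and -0.07 to 0.09 for Abcg1.

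Replicate numbers of non-stroked mice did not pair the samples (correlations of same-numbered NSG and WT mice of -0.258, 0.108 and -0.135, and of Rag2-/- and WT mice of 0.0775 and 0.0826). With the replicate block 2 members were called between NSG and WT, Apoc1 at 2.44 and Lpl at 1.58, as without it, and 0 between Rag2-/- and WT, where Plin2 turned from -0.16 to 0.01 with and without the replicate block over the mice that share a number. Few counts limit Apoc4, Cd5l and Ch25h in non-stroked mice.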
